A study of Homo sapiens with 18 samples.

Results

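The 4 cancer genes RB1, MYC, SMAD4 and CTNNA1, landmarks of copy number change in tumours, were chosen by name from 20136 protein-coding genes on chromosomes 1 to 22, X and Y. The lines studied were HCT15, established from a colorectal carcinoma, and DU145 and PC3, established from prostate cancers; all were untreated cultures. Genomic DNA of each line had been enriched for methylated fragments with 5 methyl-CpG binding domain (MBD) kits and sequenced, and had also been profiled by reduced representation bisulfite sequencing (RRBS). There was 1 library per line and assay, 18 in all, so no difference between lines has a replicate check, and intervals below are 95% and cover counting error only. The depth results rest on the kit MethylMiner, with 7344098 rebuilt fragments for HCT15, 2955893 for DU145 and 2092970 for PC3. Of these, 21.7%, 21.1% and 18.0% covered no CpG of the reference genome. Across 2592 bins of 1 Mb, the deviation of each MethylMiner library from the mean of the 3 lines correlated with that of the MethylCap library bearing the same line name (r of 0.72 to 0.76, as a description, since bins share libraries).

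RB1 encodes the retinoblastoma protein, which holds E2F transcription factors in check and so restrains entry into the cell cycle. MYC encodes a transcription factor that drives growth and is often amplified in tumours, SMAD4 encodes the shared partner of the receptor-activated SMAD proteins that carry TGF-beta and BMP signals to the nucleus, and CTNNA1 encodes alpha-catenin, which ties cadherin-bound beta-catenin to the actin cytoskeleton. Deletion removes both the sequence and its methylation from any library, whereas MBD depth at a locus that is present rises with copies and with methylation alike; in a single MBD library those 2 quantities cannot be told apart.

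The contrasts described below are carried by 3 stretches of the GRCh37 reference, namely a promoter with low mean methylation, a methylated island inside the same gene, and a place in the stretch with almost no depth in PC3. In the first pair, capitals mark CpGs read at least 20 times in at least 1 line; in the last, they mark CpGs read in both HCT15 and DU145 whose surrounding 24 bases occur once in the bisulfite-converted genome. All are written 5′ to 3′ on the plus strand, which is the coding strand of RB1 and CTNNA1.
RB1 promoter, chr13:48877630-48877879, from 257 to 8 bases before the transcription start: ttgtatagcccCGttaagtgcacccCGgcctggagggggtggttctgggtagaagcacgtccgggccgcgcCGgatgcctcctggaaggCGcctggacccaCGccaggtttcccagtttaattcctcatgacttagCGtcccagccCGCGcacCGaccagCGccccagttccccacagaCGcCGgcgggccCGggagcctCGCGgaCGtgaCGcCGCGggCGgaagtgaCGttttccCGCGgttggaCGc
RB1 intron 2 island, chr13:48893131-48893330: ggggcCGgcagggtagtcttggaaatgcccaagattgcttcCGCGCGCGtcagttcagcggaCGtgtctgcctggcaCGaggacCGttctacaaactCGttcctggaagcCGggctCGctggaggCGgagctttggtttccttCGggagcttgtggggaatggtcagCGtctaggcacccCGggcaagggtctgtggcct
CTNNA1 run, chr5:138281813-138281962, intergenic, 11090 bases past the last exon of CTNNA1: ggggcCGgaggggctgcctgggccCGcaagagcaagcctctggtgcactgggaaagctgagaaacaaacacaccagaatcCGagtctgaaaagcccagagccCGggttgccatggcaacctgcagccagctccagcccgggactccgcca

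Depth was summed over each gene and 500 kb either side and is given relative to the genome mean, which is 1. The median window of all autosomal protein-coding genes stood higher, at 1.53 in HCT15, 1.45 in DU145 and 1.34 in PC3. The 4 genes did not move together. Compared with HCT15, DU145 had less depth at RB1 and SMAD4, and PC3 had less at SMAD4 and CTNNA1 but more at MYC. A log2 ratio of at least 0.5 or at most -0.5 was taken as past the fold. For DU145 over HCT15, 2 of the 4 genes were past it downwards, against 12.7% of 19222 autosomal genes, and 0 upwards, against 5.33%. For PC3 over HCT15, 2 of 4 were lower, against 29.2%, and 1 was higher, against 8.09%. For PC3 over DU145, 1 of 4 was lower, against 24.1%, and 1 higher, against 14.1%. Lower depth of this size was thus common in PC3. The median over all genes was 0.02, -0.12 and -0.06 for DU145 over HCT15, PC3 over HCT15 and PC3 over DU145. Centred on that median, PC3 over HCT15 had 2437 genes higher and 4288 lower in place of 1556 and 5610, and the 4 genes kept their calls.

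**Figure D1:**
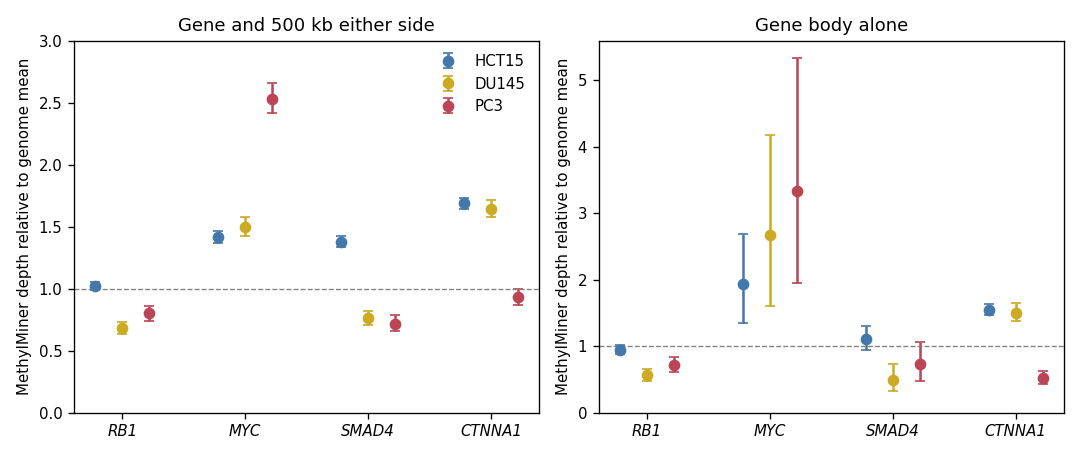
MethylMiner depth relative to the genome mean (dashed line at 1) for each gene with 500 kb either side (left) and the gene body alone (right) in HCT15, DU145 and PC3. Points are single libraries and bars are exact 95% counting intervals; the PC3 point for the MYC window lies at 2.53, above both other lines, and the bars of MYC alone, with 17 to 35 fragments, overlap.

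CTNNA1 (chromosome 5, 137946656 to 138270723, plus strand; canonical transcript from 138089114, 18 exons) showed the sharpest difference. Relative depth over the window was 1.69 in HCT15 (5271 fragments), 1.64 in DU145 (2090) and 0.931 in PC3 (833). PC3 stood below both other lines, whose intervals overlapped. The log2 ratio was -0.86 for PC3 over HCT15 (interval -0.96 to -0.74) and -0.82 for PC3 over DU145 (-0.95 to -0.71), while DU145 over HCT15 gave -0.04 (-0.10 to 0.05). Within the annotated gene the relative depth was 1.55 in HCT15, 1.505 in DU145 and 0.523 in PC3, so the deficit was deeper in the gene than around it, with log2 ratios of -1.57 and -1.53.

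In bins of 10 kb the deficit resolved into a block with edges. A bin was called depleted when its share of depth was under 0.1 times that of both other lines. In PC3, 17 of 20 consecutive bins from 138110001 to 138310000 were depleted. This 200 kb run held exons 2 to 18 of the 18 exons of CTNNA1, with exon 1 (138089114 to 138089199) outside it. It also held the whole of LRRTM2 (138204610 to 138211057), a synaptic adhesion protein gene that lies inside CTNNA1, and 27.6 of the 347 kb of SIL1, which encodes a nucleotide exchange factor of the endoplasmic reticulum. The run thus covered LRRTM2 whole, CTNNA1 without its first exon, and only the end of SIL1 nearest to CTNNA1.

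MethylMiner fragments in the run numbered 686 for HCT15, 264 for DU145 and only 4 for PC3. Scaled by library size, PC3 was 48.9-fold lower than HCT15 (interval 19.0 to 180) and 46.7-fold lower than DU145 (18.0 to 173). The run was chosen by its low PC3 depth in these same fragments, so a large ratio was set in advance. The intervals do not cover that choice. The last PC3 fragment before the run ended at 138105516 and the first after it started at 138311023, 206 kb apart with only those 4 fragments between. The longest stretch with depth 0 anywhere in the window was 71113 bp in PC3, against 5743 bp in HCT15 and 7443 bp in DU145.

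**Figure D2:**
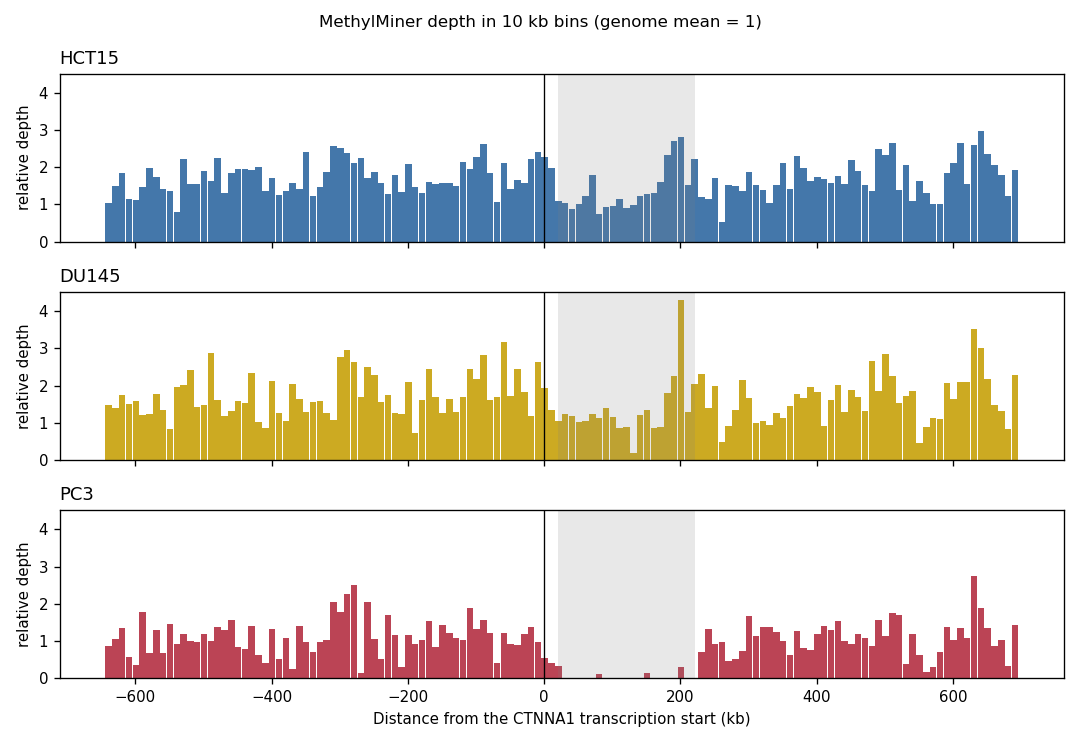
MethylMiner depth relative to the genome mean in 10 kb bins against distance from the CTNNA1 transcription start (vertical line), in kb, for HCT15, DU145 and PC3. The shaded 200 kb run is filled in HCT15 and DU145, with 686 and 264 fragments, and nearly empty in PC3, with 4.

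Of the other kits, MethylCap showed the same deficit, and the rest had few fragments. MethylCap had 447 fragments there for HCT15, 85 for DU145 and 3 for PC3, MethylCollector Ultra had 62, 3 and 3, MethylCollector 14, 2 and 1, and MethylMagnet 2, 0 and 0. Over all 5 kits the sums were 1211, 354 and 11. An even spread over the genome would have put 135 MethylMiner, 61.4 MethylCap, 37.4 MethylCollector Ultra, 5.49 MethylCollector and 15.6 MethylMagnet fragments of PC3 in the run, so PC3 was below that level in every kit. For DU145 the last 3 kits would have given 1.96, 1.91 and 0.649, which is too few to set beside PC3. For HCT15 they would have given 42.2, 17.2 and 3.87, and its MethylCollector and MethylMagnet libraries were themselves below that.

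RRBS served as a second line of evidence, since its reads do not depend on capture of methylated DNA. The files listed 166 CpGs of the run for HCT15, 238 for DU145 and 91 for PC3. Reads over these CpGs numbered 2437, 5047 and 1309, which is 36.2, 41.9 and 14.1 of every 1000000 RRBS reads, so reads were fewer in PC3 but not absent. The CpGs were then split by how often their 24 surrounding bases occur in the bisulfite-converted genome, a step added after the data had been seen. Of those occurring once, HCT15 had 36 with 666 reads, DU145 had 37 with 1126 reads and PC3 had 0, and all 91 CpGs of PC3 lay in repeated sequence with a median of 4254 copies. A CpG enters the files only from 6 reads, so one that is not listed may still have had fewer. In the window outside the run, CpGs occurring once were present in all lines, at 1062, 929 and 1024. The CTNNA1 run sequence printed above is an example: its 4 capital CpGs had 63 reads in HCT15 and 100 in DU145, and none was listed in PC3.

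Around the run PC3 was also lower. Outside it, the rest of the window had a relative depth of 1.73 in HCT15, 1.69 in DU145 and 1.09 in PC3, a log2 ratio of -0.67 for PC3 over HCT15 (-0.76 to -0.55) and -0.63 for PC3 over DU145 (-0.76 to -0.52). The chromosome 5 medians over 175 bins were 0.01 and -0.48, so against DU145 much of that chromosome was lower as well. The 663 kb before the run and the 461 kb after it gave nearly equal ratios for PC3 over HCT15, -0.67 (-0.80 to -0.52) and -0.67 (-0.83 to -0.49). In 1 Mb bins, the lower stretch around CTNNA1 extended over 2 bins, from 137000001 to 139000000, in PC3 against each of the other lines.

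Among runs of at least 5 depleted bins, that at CTNNA1 was number 4 by length of 63 in PC3. HCT15 had 4 such runs, none longer than 130 kb, and DU145 had 13, none longer than 170 kb. The numbers of runs stood in the reverse order of library size, so they cannot be compared between lines as numbers of deletions. Of gene bodies tested, 17 (0.144%) had under 0.1 times the depth of both other lines in PC3, 1 (0.00742%) in DU145 and 0 in HCT15. CTNNA1 was not among the 17, because its annotated gene begins upstream of the canonical first exon and so reaches beyond the run.

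SMAD4 (chromosome 18, 48554898 to 48611415, plus strand, 12 exons) was lower in both prostate lines than in HCT15. The relative depth over its window was 1.38 in HCT15 (3461 fragments), 0.762 in DU145 (783) and 0.718 in PC3 (514). HCT15 stood apart, and DU145 and PC3 overlapped. The log2 ratio was -0.85 for DU145 over HCT15 (-0.94 to -0.72) and -0.94 for PC3 over HCT15 (-1.08 to -0.81), with 0.905% and 1.55% of genes below them, and -0.09 for PC3 over DU145 (-0.27 to 0.05). In the gene itself 153, 26 and 27 fragments gave relative depths of 1.11, 0.496 and 0.726, and the only depleted bins of its window, 2 in PC3, lay outside the gene.

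The lower depth reached beyond the gene but not along the chromosome. Against HCT15, an unbroken run of 1 Mb bins at or below -0.5 covered SMAD4 from 45000001 to 49000000 in DU145 and from 43000001 to 49000000 in PC3. The medians over the 73 bins of chromosome 18 were -0.12 and -0.00. SMAD4 ended its run on both occasions, the next bin being above -0.5. In MethylCap the window log2 ratio was -0.497 for DU145 and -1.53 for PC3 over HCT15, and -1.03 for PC3 over DU145, so DU145 fell just short of the fold, and the near equality of DU145 and PC3 did not hold in that kit. Fragments without a CpG gave -0.70 (-0.93 to -0.47) and -0.77 (-1.06 to -0.48) over HCT15.

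MYC (chromosome 8, 128747680 to 128755197, plus strand, 3 exons) was the only one of the 4 genes with more depth in PC3 than in both other lines. The relative depth over its window was 1.42 in HCT15 (3405 fragments), 1.5 in DU145 (1443) and 2.53 in PC3 (1722). The PC3 library stood above the other lines, and the interval of their ratio held 0. PC3 had 1.78 times the depth of HCT15 (log2 0.84, 0.74 to 0.91) and 1.69 times that of DU145 (log2 0.75, 0.65 to 0.85), and DU145 over HCT15 was 0.08 (-0.02 to 0.16). Of all genes, 96.4% and 95.5% lay below the values of PC3 at MYC. The gene is short and its own 35, 19 and 17 fragments, at relative depths of 1.93, 2.68 and 3.34, did not separate the lines.

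The rise was broad. MYC lay in an unbroken run of 44 bins of 1 Mb, from 101000001 to 145000000, all at or above 0.5 in PC3 against HCT15 and against DU145. On the same chromosome 74 of 140 bins were higher and 52 lower in PC3 than in HCT15, the last of the lower ones starting at 61000001. PVT1, the long non-coding RNA gene next to MYC, lay in the same stretch and had a log2 ratio of 0.95 for PC3 over HCT15. Its window takes in most of the MYC window, so the PVT1 and MYC values share fragments. MethylCap gave 0.92 and 0.89 for the MYC window in PC3 over HCT15 and DU145, and fragments without a CpG gave 0.84 (0.64 to 1.03) and 0.62 (0.40 to 0.84).

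RB1 (chromosome 13, 48877880 to 49173572, plus strand, 27 exons in the canonical transcript) had a smaller largest ratio between lines than the other 3 genes. The relative depth over its window was 1.02 in HCT15 (3151 fragments), 0.681 in DU145 (839) and 0.799 in PC3 (702). The order HCT15, PC3, DU145 held beyond counting error at each step. The log2 ratio was -0.58 for DU145 over HCT15 (-0.71 to -0.49), -0.35 for PC3 over HCT15 (-0.48 to -0.24) and 0.23 for PC3 over DU145 (0.09 to 0.39). In the gene alone, relative depths of 0.948, 0.561 and 0.716 followed the same order.

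This pattern was not particular to the gene. Over the 93 bins of chromosome 13, the median log2 ratio was -0.43 for DU145 over HCT15 and -0.24 for PC3 over HCT15, and the 1 Mb bin with the start of RB1 was at -0.43 and -0.29. Of those bins, 28 were at or below -0.5 in DU145 and 6 in PC3, and the bin with the start of RB1 was not one of them. MethylCap gave smaller ratios for the window, -0.17 for DU145 and -0.14 for PC3 over HCT15, so the difference at RB1 shrank below the fold in that kit. No run of depleted bins touched the gene, though a single bin at its canonical end, from 49050001 to 49060000, had no PC3 depth. The longest stretch with depth 0 in its window was 4197 bp in HCT15, 11699 bp in DU145 and 13379 bp in PC3, in the reverse order of library size.

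**Figure D3:**
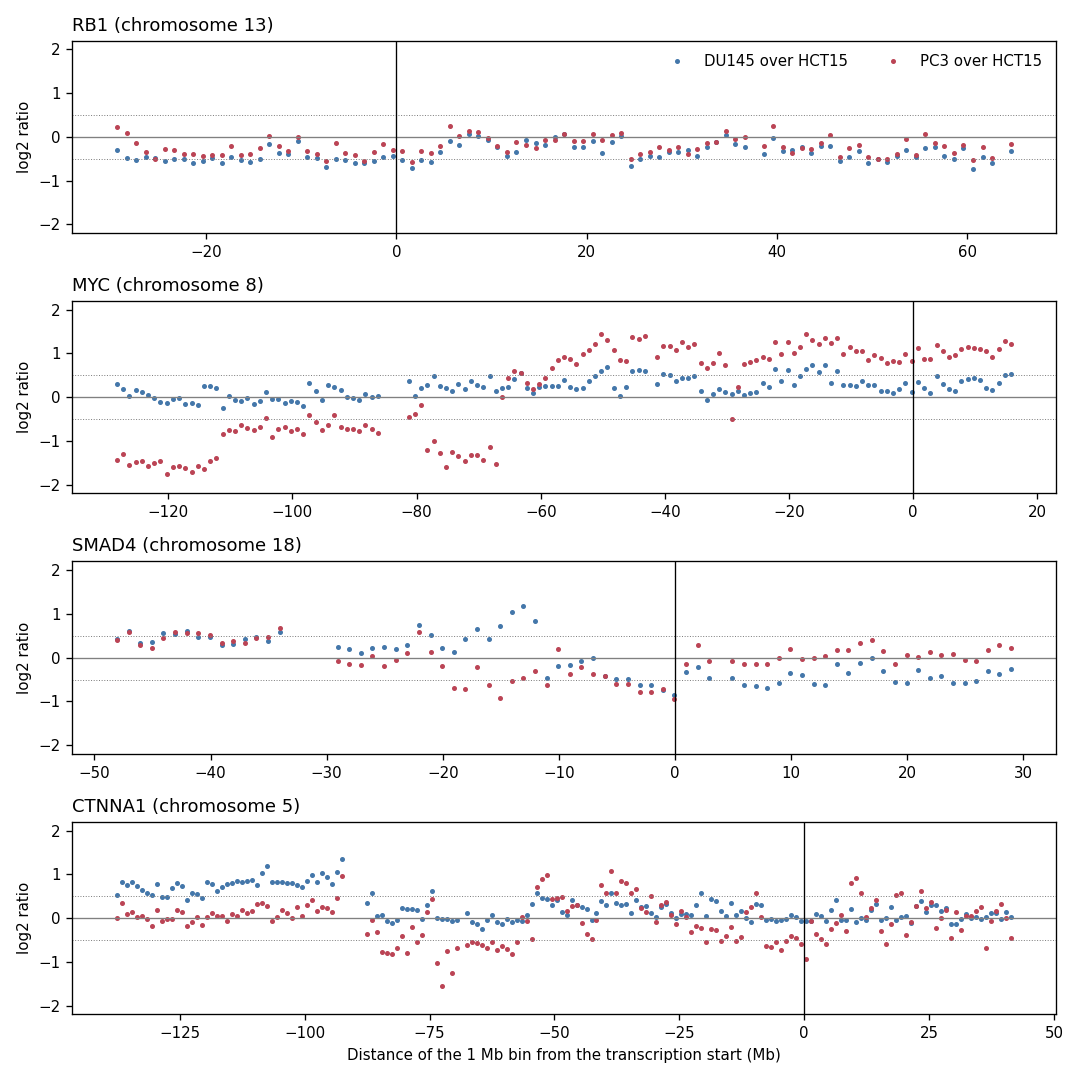
Log2 ratio of MethylMiner depth in 1 Mb bins along the chromosome of each gene, against distance from its transcription start in Mb (vertical line); blue points are DU145 over HCT15, red points PC3 over HCT15 and dotted lines mark 0.5 and -0.5. MYC lies in a 44 Mb stretch that is higher in PC3, SMAD4 at the end of a lower stretch in both prostate lines, and RB1 on a chromosome with 28 bins at or below -0.5 in DU145 and 0 at or above 0.5.

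RRBS coverage is the number of reads over each CpG. For each window the median log2 ratio was taken over 646 to 2212 CpGs present in both lines. A CpG with fewer than 6 reads in either line is not listed and so could not enter, which can leave out CpGs that fell low in 1 line. No single-copy CpG of the CTNNA1 run was listed in PC3, so none entered. How far this made the lower windows smaller was not tested. For MYC it was 0.87 for PC3 over HCT15 (0.82 to 0.91, from the order of the CpG values) and 0.68 for PC3 over DU145, close to the MethylMiner values. For the lower windows it was smaller than in MethylMiner: -0.47 and -0.56 at SMAD4 for DU145 and PC3 over HCT15, -0.51 and -0.39 at CTNNA1 for PC3 over HCT15 and DU145, and -0.31 at RB1 for DU145 over HCT15. At the same threshold of 0.5, 0 of 4 genes passed for DU145 over HCT15, with 13.6% of 18540 genes lower and 4.54% higher. For PC3 over HCT15, SMAD4 and CTNNA1 were lower (background 26.0%) and MYC higher (8.30%), and for PC3 over DU145 MYC was higher (15.5%) and 0 were lower (19.8%). Some windows lay at the median of all genes, such as RB1 for PC3 over DU145, at 0.077 against 0.076. The median over all genes was -0.10 for DU145 over HCT15, and against it RB1 and SMAD4 lay at the 25.4 and 15.5 percentiles, nearer to the middle than in MethylMiner. For PC3 over HCT15, SMAD4 and CTNNA1 lay at the 23.4 and 25.5 percentiles, against 1.55 and 3.17 in MethylMiner. MYC lay at 96.7 against 96.4.

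**Figure D4:**
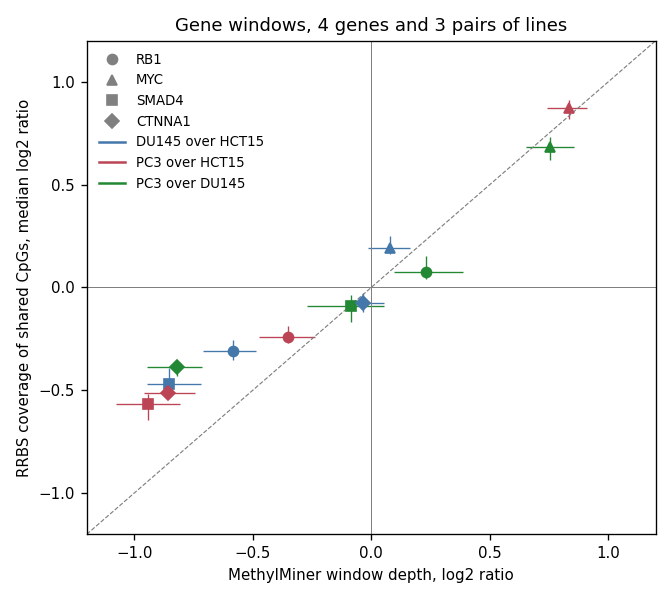
Median log2 ratio of RRBS coverage over shared CpGs against the log2 ratio of MethylMiner depth for the 4 gene windows and 3 pairs of lines, which share libraries; bars are 95% intervals from CpG order statistics (vertical) and fragment counts (horizontal), and the dashed line marks equality. MYC in PC3 lies on the line, and the 5 windows at or below -0.5 in MethylMiner lie above it, at -0.31 to -0.56 on the vertical axis.

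DNA methylation at the 4 promoters was then taken from RRBS within 1000 bp of the transcription start, at CpGs with at least 20 reads. The mean over CpGs ranged from 7.6% to 13.1%, with medians of 0% to 0.935%. These means were made by 2 classes of CpG. CpGs inside CCGG or TCGA, the recognition sequences of MspI and TaqI (MspI is the enzyme usual in RRBS, and the enzymes used here are not given in the sources used here), stood near 50%, at means of 47.5% to 52.0% over the 12 promoters and lines. All other CpGs had means of 0.133% to 1.197%. At 20% or more were 114 of 123 CpG values of the first class and 0 of 533 of the second. The same gap held over all protein-coding promoters, where the median was 57.1% in CCGG, 60.0% in TCGA and 0% elsewhere in HCT15, 56.5%, 61.4% and 0.948% in DU145, and 55.8%, 59.6% and 0% in PC3. The cause was not tested. This split was made after the data had been seen.

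Outside those sites, RB1 had 0.956% methylation in HCT15 (SD 2.04 over 55 CpGs), 0.651% in DU145 (1.14, 58) and 1.197% in PC3 (2.10, 78). MYC had 0.614%, 0.561% and 0.823% (20, 21 and 27 CpGs), SMAD4 had 0.133%, 0.681% and 0.535% (26, 36 and 45), and CTNNA1 had 0.530%, 0.612% and 0.662% (74, 45 and 48). Every one of these means was at or below 1.197%, in lines with less depth at a gene and in the others, and the differences between lines were not tested. The promoter of CTNNA1, which lies before the run, was read in PC3. With CCGG and TCGA included, the printed stretch of the RB1 promoter averaged 6.57% in HCT15, 8.53% in DU145 and 10.6% in PC3. Single CpGs there reached 45.5%, 65.2% and 64.0%.

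Inside RB1 the second intron held a CpG island of 2032 bp (chromosome 13, 48891957 to 48893988, 122 CpGs) within the pseudogene PPP1R26P1, known from normal tissue as an imprinted island methylated on the maternal copy. In these lines its methylation was 97.8% in HCT15 (SD 4.93, 23 CpGs), 99.0% in DU145 (1.51, 27) and 98.0% in PC3 (2.10, 19), near full methylation in each of them. CpGs outside CCGG and TCGA gave 99.6%, 99.1% and 97.3%. The printed stretch of this island held 16 CpGs, of which 7, 15 and 7 were read at least 20 times, at means of 100%, 99.1% and 97.8%. MBD capture followed the same contrast, with 36, 6 and 15 MethylCap fragments in the island, 12.9, 10.2 and 22.02 times those of an even spread, against 1, 0 and 0 in the promoter island of the gene. MethylMiner had 19, 6 and 3 fragments in the intron 2 island and 6, 4 and 1 in the promoter island.

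**Figure D5:**
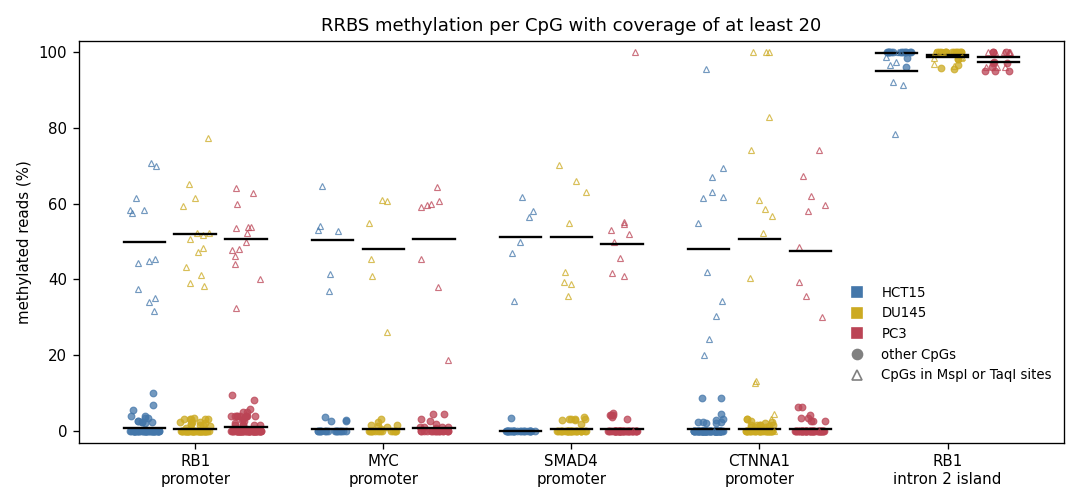
RRBS methylation of single CpGs, in percent, at the 4 promoters and the RB1 intron 2 island in HCT15, DU145 and PC3; filled circles are CpGs outside and open triangles CpGs inside MspI or TaqI sites, and black bars are the means of each class. Promoter CpGs outside the sites average 0.133% to 1.197% and those inside 47.5% to 52.0%, and both classes are near full methylation in the RB1 island.

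CpG by CpG, few of the tested CpGs in the gene bodies of RB1, SMAD4 and CTNNA1 differed between lines. Many of them were promoter CpGs, which outside CCGG and TCGA were near 0% in every line. For DU145 over HCT15, 26 of the 30 tested in SMAD4 and 54 of the 106 in CTNNA1 lay within 1000 bp of the transcription start. The counts thus say little about the rest of those genes. Fisher's exact test with Benjamini-Hochberg adjustment over all CpGs compared pairs of libraries, not lines, and its p-values cover the counting of reads only, which need not be independent molecules. A CpG was called at an adjusted p under 0.05 and a difference of at least 20 points. In RB1, 1 of 99 tested CpGs was higher and 1 lower in DU145 than in HCT15 (background 8.45% and 8.78%), 0 and 1 of 102 in PC3 than in HCT15 (4.67% and 13.4%) and 0 and 1 of 115 in PC3 than in DU145 (4.37% and 14.8%); every one of these calls lay in a CCGG site. In SMAD4, 0 of 30 CpGs were called for DU145 over HCT15, and a single CpG was lower in PC3 than in either other line, at 46.7% in PC3, 100% in HCT15 and 95.8% in DU145. The wider SMAD4 window used for depth had larger shares of lower CpGs in PC3 than the gene body. There 66 of 367 CpGs were lower in PC3 than in HCT15 (18.0%, background 13.4%) and 2 higher (background 4.67%). The mean difference was -12.6 points. Against DU145, 60 of 397 were lower in PC3 (15.1%, background 14.8%, nearly the same) and 4 higher (background 4.37%), with a mean of -9.70 points. Whether this bears on the depth there was not tested. In CTNNA1, 6 of 106 were higher and 1 lower for DU145 over HCT15, 2 of 89 higher and 3 lower for PC3 over HCT15, and 1 of 88 higher and 7 lower for PC3 over DU145. Outside CCGG and TCGA these totals fell from 7 to 2, from 5 to 3 and from 8 to 4.

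In MYC the calls lay in 1 place. Of 43 tested CpGs 6 were lower in DU145 than in HCT15 (background 8.78%), and of 57 tested 7 were lower in PC3 (background 13.4%, near the share in MYC), with 0 higher in either. All lay within 80 bp of exon 2 (chromosome 8, 128750556 to 128750636), and neighbouring CpGs share reads, so they are not independent of each other. In HCT15 these 7 CpGs ranged from 21.9% to 83.9% (median 31.3%, 31 to 44 reads each), in DU145 from 1.89% to 34.0% (median 1.89%) and in PC3 from 0% to 47.4% (median 0%), the highest value in each line belonging to the CpG in a CCGG site. HCT15 was thus partly methylated where DU145 and PC3 were at 0% to 8.62% outside that site. At the CpG 2109 bp after the transcription start HCT15 had 50% against 2.27% in DU145 (Fisher's exact test, adjusted p = 1.1e-09) and 0% in PC3 (adjusted p = 6.8e-12). MethylCap had 19 fragments over the exon 1 and 2 island for HCT15 and 0 for either prostate line, where an even spread would give 1.02 and 1.18. MethylMiner had 20, 9 and 12 there.

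Genes that work with each of the 4 were read in the same way. The background shares over all genes were 12.7% lower and 5.33% higher for DU145 over HCT15. They were 29.2% and 8.09% for PC3 over HCT15, and 24.1% and 14.1% for PC3 over DU145. The small counts below were not tested against them. Of 12 genes around RB1 (RB family, E2F factors, cyclins and their kinases), 0 were past the fold for DU145 over HCT15 (median log2 0.08) and 3 were lower in PC3 than in HCT15 (median -0.14): RBL2 at -0.86, E2F4 at -0.64 and CCNE1 at -0.59; the same 3 were lower in PC3 than in DU145. Of 12 genes of the MYC network, 1 (MYCL, -0.59) was lower in DU145 than in HCT15. In PC3 over HCT15, 2 were higher: MAX, the obligate partner of MYC, at 0.92 and PVT1 at 0.95. Lower were 4: MLX at -1.39, MXI1 at -0.86, MXD4 at -0.58 and MNT at -0.55. The PVT1 window takes in most of the MYC window, so PVT1 is not separate from MYC. Against DU145, PC3 was past the fold at the same 6 genes. Centred on the median of all genes, values of PC3 over HCT15 rise by 0.12, which keeps their direction but takes MNT, MXD4 and CCNE1 inside the fold. In the gene bodies alone, PC3 over HCT15 stood at -0.05 for MLX, 0.11 for MNT, -0.66 for MXD4 and -1.37 for MXI1. These bodies held only 9, 35, 23 and 23 fragments in PC3. The MLX window took in a 410 kb run depleted in PC3, on chromosome 17 from 40260001 to 40670000. MLX itself lay outside that run.

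Of 12 TGF-beta and BMP pathway genes, 3 were lower in DU145 than in HCT15 (median -0.19): BMPR2 at -0.64, SMAD7 at -0.62 and SMAD2 at -0.58, the last 2 being neighbours of SMAD4 on chromosome 18. In PC3 over HCT15, 6 were lower (median -0.47), among them SMAD7 at -0.79, SMAD3 at -0.73 and SMAD2 at -0.72, and TGFBR2, the type II TGF-beta receptor, was higher at 0.56. Centring takes 2 of the 6, TGFBR1 (-0.59) and BMPR1B (-0.54), inside the fold. Against DU145, 3 were lower and 1 higher. Of 10 genes of the cadherin and catenin complex, 0 passed for DU145 over HCT15. In PC3 over HCT15, JUP (plakoglobin) at -0.95 and CDH1 (E-cadherin) at -0.79 were lower, and VCL (vinculin) at 1.82 and CTNNA3 (alpha-T-catenin) at 1.22 were higher. The JUP window took in part of the 410 kb run depleted in PC3 on chromosome 17, with JUP itself outside it, and the JUP gene body gave -0.92. Against DU145, 2 were lower and 3 higher. The VCL window stood at 1.41, 1.41 and 5.00 in HCT15, DU145 and PC3. For PC3 over HCT15, CTNNB1 (0.23), CDH2 (0.14), CTNNA2 (0.13), CTNND1 (0.12), LIMA1 (-0.21) and AFDN (-0.46) lay inside the fold. The listed genes thus had no common direction in PC3, with 2 of 10 lower than in HCT15 against 29.2% of all genes.

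By the distance between their 3 window levels, relative to the mean over lines, the genes on other chromosomes most like the 4 were RCC1, RHBDL2 and L1TD1 for RB1, SAMD4A, OR2T33 and OR2G6 for MYC, TRAF3IP2, RAB33B and FYN for SMAD4, and SMG9, KCNN4 and ZNF221 for CTNNA1. The 3 genes nearest to RB1 all lay on chromosome 1 and the 3 nearest to CTNNA1 on chromosome 19.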

How the data were processed

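Methylated DNA of HCT15, DU145 and PC3 had been captured with 5 MBD kits and sequenced in paired ends; per the labels and methods, the authors aligned reads with Bowtie to hg19 and kept uniquely mapped pairs, and deposited runs of coverage, here called depth (signal). The authors also deposited RRBS counts per CpG (methylated and total reads, strands combined), from 6 reads; their aligner is not given in the sources used here. Fragments were rebuilt from rises and falls of depth. Depth in each gene (GENCODE v44 lifted to GRCh37, chosen as the build of the files) with 500 kb either side was divided by the library total, and by the share of the genome it spans. Fragment ratios have exact conditional binomial (Clopper-Pearson) 95% intervals. RRBS totals covered chromosomes 1 to 20, since the PC3 file lists 0 CpGs on chromosome 22; 67289622, 120405381 and 92680335 reads were used in HCT15, DU145 and PC3, with median coverage of 18, 25 and 20. CpGs were tested at coverage of at least 20 in a single fit over all CpGs shared by a pair. CpG islands had at least 200 bp, 50% GC and an observed to expected CpG ratio of 0.6.

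Genes named were the 4 members, genes in a depleted run that touches one, the 3 genes most alike in window levels, and listed pathway genes past the fold. The members and lists were chosen with earlier results of these data known. A further list of copy number landmarks is not reported here. Alternatives were median centring, fragments without CpG, runs of depth above 10 left out, MethylCap, other deletion and coverage limits, summed reads, single-copy CpGs, and CpGs outside CCGG and TCGA. Python 3.11.15, numpy 2.4.6, scipy 1.17.1 and numba 0.67.0 were used, and scripts were tested on simulated data. The labels give 1 sample per group, so no test of lines was possible, and Fisher's exact test on RRBS reads compares pairs of libraries, with p-values that cover read counting only.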

Additional observations from a re-analysis of the deposited data

How the results depend on the processing

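No paired analysis was possible because each kit and RRBS was used once per line and the labels carry no replicate numbers. With runs of depth above 10 left out, all 12 window ratios stayed within their intervals. Fragments without a CpG, which depend less on capture, gave window ratios for DU145 over HCT15 of -0.73 at RB1, 0.22 at MYC, -0.70 at SMAD4 and -0.13 at CTNNA1, for PC3 over HCT15 of -0.50, -0.77 and -1.17 at RB1, SMAD4 and CTNNA1, and for PC3 over DU145 of 0.62 at MYC and -1.04 at CTNNA1. MethylCap gave -0.17 at RB1, -0.497 at SMAD4 (inside the fold) and -0.10 at CTNNA1 for DU145 over HCT15, -0.14, 0.92 and -1.53 at RB1, MYC and SMAD4 for PC3 over HCT15, and 0.036, 0.89, -1.03 and -0.66 at RB1, MYC, SMAD4 and CTNNA1 for PC3 over DU145. It also put 1892 genes past the fold upwards for DU145 and 2382 for PC3 over HCT15. Centring gave -0.23, 0.95 and -0.74 at RB1, MYC and CTNNA1 for PC3 over HCT15, and 2437 genes higher.

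In gene bodies, fragments without a CpG gave 0.012 at RB1, -2.13 at SMAD4 and -1.90 at CTNNA1 for PC3 over HCT15, and -0.86 at MYC and -1.94 at CTNNA1 for PC3 over DU145. SMAD4 in PC3 over DU145 turned from 0.55 to -1.08, and the main interval of that ratio held 0. The MYC body had 17 fragments in PC3 and 19 in DU145 in all, and the SMAD4 body had 27 and 26. Only a part of these covered no CpG, so the values at MYC and SMAD4 rest on few fragments. HCT15 had 3 deleted genes at 0.2 times the other lines and 4 at 10 expected fragments, in place of 0.

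The ratio of summed RRBS reads was 0.27 at MYC for DU145 over HCT15, -0.15, 1.01, -0.65 and -0.60 at RB1, MYC, SMAD4 and CTNNA1 for PC3 over HCT15, and 0.74, -0.22 and -0.54 at MYC, SMAD4 and CTNNA1 for PC3 over DU145. Single-copy CpGs in the CTNNA1 run, an alternative chosen after seeing the data, numbered 36, 37 and 0.

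Promoter means at coverage of 10 were 8.60% (HCT15) and 9.78% (PC3) at RB1, 12.6% (DU145) at MYC, and 9.44% (HCT15) and 11.4% (DU145) at CTNNA1. At coverage of 50 they were 12.4%, 9.10% and 11.5% at RB1, 11.6% (PC3) at SMAD4, and 14.3%, 9.86% and 11.3% at CTNNA1. Pooled reads gave 8.59% (DU145) at RB1, and 8.82% (HCT15) and 9.98% (DU145) at CTNNA1. Without CpGs in CCGG and TCGA, chosen after seeing the data, the means were 0.956%, 0.651% and 1.197% at RB1, 0.614%, 0.561% and 0.823% at MYC, 0.133%, 0.681% and 0.535% at SMAD4, and 0.530%, 0.612% and 0.662% at CTNNA1.

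Called CpGs without those sites were 0, 0 and 0 at RB1 and 2, 3 and 4 at CTNNA1. At coverage of 10, calls for DU145 over HCT15 were 15 at MYC, for PC3 over HCT15 2 at RB1, 14 at MYC and 2 at SMAD4, and for PC3 over DU145 2 at RB1 and 14 at CTNNA1. At 40 points they were 1, 2 and 0 at RB1, MYC and CTNNA1, then 1 and 2 at MYC and CTNNA1, then 1 at CTNNA1. The cause of these changes was not tested.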
